A study of Mus musculus with 24 samples.

Results

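Integrins are cell surface receptors for the extracellular matrix, and laminins are the matrix proteins on which cultured sensory neurons were plated here. The genes described are the integrin alpha and beta chains and the laminin alpha, beta and gamma chains, 38 of the 20782 genes in the table. They were taken by name, as every symbol that begins with Itga or Itgb or that reads Lama, Lamb or Lamc with a number, without Itgb1bp1, Itgb1bp2, Itgb3bp and Itgbl1, which encode no integrin chain. This gave 27 integrin chains (18 alpha and 9 beta) and 11 laminin chains. Their levels were measured by RNA sequencing of mouse lumbar dorsal root ganglia, the clusters of sensory neurons beside the spinal cord, in 24 libraries that formed 8 groups of 3. There were 2 embryonic groups, E12.5 and E17.5. A pair of operated groups held L4 and L5 ganglia of adults with a peripheral lesion, called conditioned in the series design, or with sham surgery. Adult lumbar ganglia were also dissociated, plated at low density on laminin in Neurobasal-A with B-27, and collected 6, 12, 24 and 36 h after plating. No genotype, strain, sex or adult age is given, how long after the lesion the ganglia were taken is not stated, and all groups are labelled as DRG neurons.

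A laminin molecule is a cross of 1 alpha, 1 beta and 1 gamma chain that is secreted into basement membranes, and the alpha chain carries most of the sites that cells bind. An integrin is a pair of 1 alpha and 1 beta chain, and the alpha chain largely sets which matrix protein is bound. The alpha3, alpha6 and alpha7 chains with beta1, and alpha6 with beta4, are the main laminin-binding integrins. In peripheral nerve, laminins line the sheath around each axon and its Schwann cell and the vessel walls, and sensory axons grow on laminin through beta1 integrins.

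Recovered depth was 3.10 to 25.7 M reads per library. Values are read counts that the depositors had divided by 1 factor per library, called normalized counts below, and a change is the difference of means of log2(value + 1), given ± SE, a scale that understates changes of low genes. Testing required a value of 10 or more in 3 or more of the libraries fitted, and a gene is said to rise or fall only at an adjusted p below 0.05 in limma. The labels do not say whether libraries of 1 group came from separate animals or cultures, so p-values reflect only how these samples scatter, and that scatter may be technical. Because whole tissue or mixed cells are measured, fewer cells of a type and less RNA per cell cannot be told apart, and the neuron label was checked against markers. General neuron markers summed to 35712 to 236160 normalized counts per library with none at 0 in any group. Schwann and satellite glia markers summed to 5431 to 105040, so glial RNA was present in each group. Sorting is named in the protocol text of all libraries, and whether it was used on the ganglia that were not cultured is not stated. The titles carry library numbers, and a gap in them is read here as a change of series, which the labels do not name. On that reading the E12.5 and E17.5 libraries are from different series, and so are the operated and the cultured libraries. Stage, or culture against ganglion, can therefore not be told apart from library series.

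Members peaked in different groups. By group mean, 15 of the 38 genes were highest at 36 h in culture, 10 at E17.5 and 6 at E12.5, while 15 were lowest at E12.5 and 9 at 6 h. In these counts Itgad stands as lowest at E12.5, though tied with sham at 0, and as highest at E17.5 through 1 library. In the plot of members by library, Itga7 shifts from its lowest values at E12.5 to its highest at 36 h, and Lama1, Lamc3 and Itga8 stand out at E12.5. Among the lowest were Itgad, Itgax, Itgae and Itgb2l, grouped here with the leukocyte integrin chains. Itgad was at 0 in all libraries of E12.5 and sham, where 3 reads over each group would be a mean level of 0.630 and 0.727, and it reached 4.62 normalized counts in 1 library of E17.5. Itgax did not pass 13.9 normalized counts in any library, and Itgb2l did not pass 7.87.

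**Figure D1:**
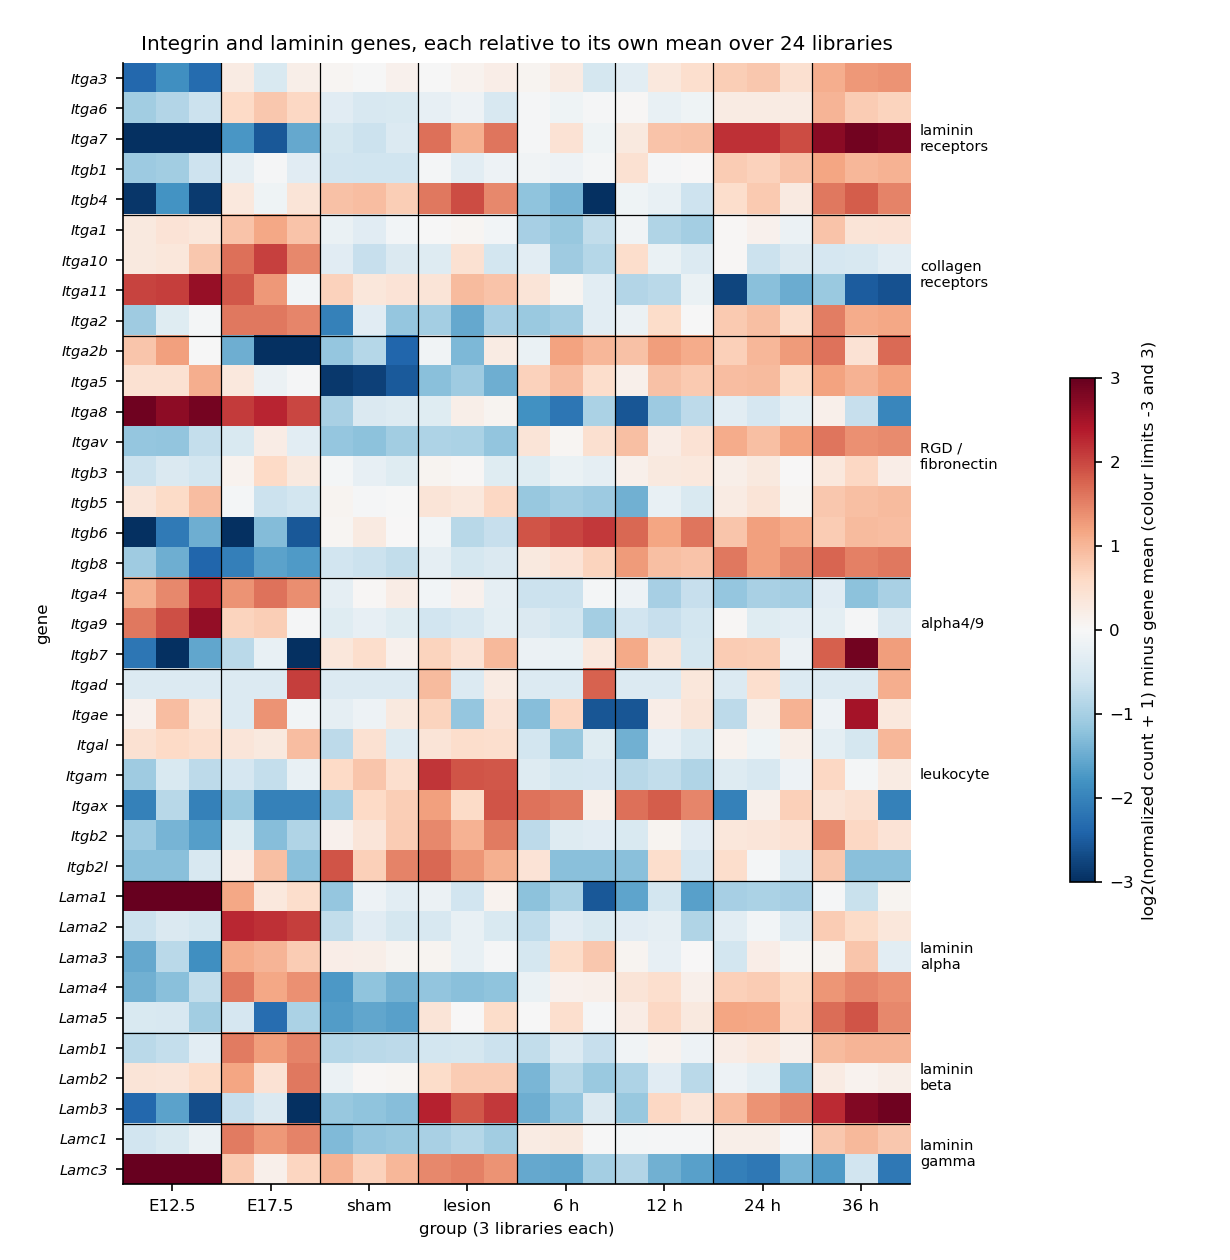
Each row is 1 gene and each column 1 of 24 libraries, in 8 groups of 3; colour is the log2(normalized count + 1) minus the gene's mean over the 24 libraries, limited to -3 and 3. Itga7 is lowest at E12.5 and highest at 36 h, Lama1 and Lamc3 are highest at E12.5, and Lamb3 is high after lesion and at 36 h.

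To compare chains with each other, normalized counts were divided by the merged exon length of each gene (GENCODE M21), which gives a level per kb. Among alpha chains, Itga7, the laminin receptor best known from muscle, took 1.84 ± 0.37% (SD, n = 3) of the summed alpha level per kb at E12.5 and 8.07 ± 2.79% at E17.5. After sham surgery its share was 29.3 ± 1.15%, and after lesion 58.5 ± 6.35%. In culture it was 30.3 ± 4.51% at 6 h, 37.6 ± 5.84% at 12 h, 55.1 ± 2.37% at 24 h and 59.1 ± 2.95% at 36 h. Thus Itga7 was the leading alpha chain in all adult groups, and the lesion and 36 h groups had the highest shares. At E17.5 the leading alpha chain was Itga6, with 32.1 ± 1.94%. At E12.5 Itga6 had the highest mean share, 17.6 ± 1.44%, beside Itga9 (16.3%), Itga4 (14.5%), Itgav (14.2%) and Itga5 (13.1%). That lead at E12.5 was within the spread between libraries. The level per kb was 85.6 ± 12.0 for Itga6, 82.2 ± 32.1 for Itga9 and 73.2 ± 31.0 for Itga4. The summed alpha level per kb was 535 ± 22.0 after sham surgery and 1053 ± 112 after lesion, and in culture it was 800.1 ± 54.3 at 6 h and 2689 ± 57.7 at 36 h.

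Among beta chains Itgb1, the common partner of the laminin-binding alpha chains, took 82.5 to 88.4% of the summed beta level per kb as the mean of each group. Itgb3, Itgb5 and Itgb8 each had under 10% in every group. Laminin chains changed more in composition. Lama1, the main alpha chain of early embryonic basement membranes, held 51.1 ± 11.8% of the laminin alpha level per kb at E12.5 and 1.74 ± 0.37% at E17.5. In all later groups Lama4, a chain of vessel and endoneurial basement membranes, was the leading alpha chain, with 54.5% at E17.5, 46.3% after sham surgery, 41.7% after lesion and 65.3 to 69.4% in culture. Lama2, the alpha chain of the endoneurial basement membrane of Schwann cells, followed with 40.3% at E17.5 and 36.7% after sham surgery, and had 15.0 to 18.8% in culture. Lama5, which is found in many mature basement membranes, held 6.13 ± 0.70% after sham surgery and 18.5 ± 3.02% after lesion. Lamc1, the gamma chain of most laminins, held 78.2 to 98.2% of the gamma level per kb, and Lamc3 reached 21.4% at E12.5. These shares are given without a test.

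**Figure D2:**
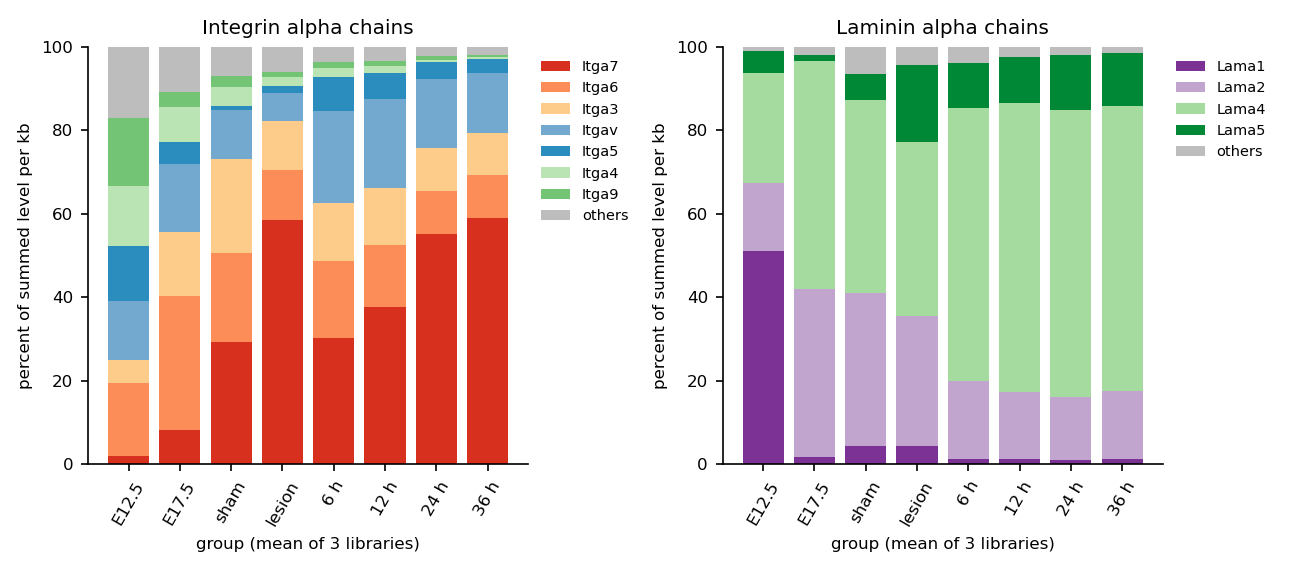
Stacked bars give the percent of the summed level per kb that each alpha chain takes in each group (left, integrins; right, laminins; mean of 3 libraries, minor chains pooled as others). Itga7 takes 29.3% after sham surgery, 58.5% after lesion and 59.1% at 36 h, and Lama1 takes 51.1% at E12.5 and 1.74% at E17.5.

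The embryonic comparison sets ganglia at E17.5 against the earlier stage of E12.5. The laminin-binding integrin chains were higher at E17.5, while the laminin chains and the integrin chains that bind fibronectin moved in both directions. Of the 31 members tested, 16 rose and 8 fell, where 31.1% of all 14550 genes tested rose and 31.9% fell (63.0% in either direction). The groups did not overlap for 16 members higher and 8 lower, as for 34.3% and 35.5% of all genes. The median change of the tested members was 0.63, against -0.05 over all genes. The 7 members not tested were Itgad, Itgae, Itgax, Itgb2l, Itgb6, Itgb7 and Lamb3, and Itga2b passed the filter only through its E12.5 libraries, so it had to differ. It is among the 8 falls, and its values are a description.

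Of the laminin alpha chains, Lama1 had 591, 517 and 299 normalized counts in the E12.5 libraries and 58.1, 31.7 and 37.0 at E17.5, a change of -3.43 ± 0.31 (limma adjusted p = 2.3e-05). Every E12.5 library lay above every E17.5 library. Lama2 had 228, 263 and 249 at E12.5 and 1720.4, 1626 and 1512 at E17.5, a change of 2.71 ± 0.12 (adjusted p = 8.2e-07). Lama4 had 228, 263 and 372 against 1881, 1393 and 1616, a change of 2.52 ± 0.20 (adjusted p = 1.1e-05). Both genes were higher in all libraries at E17.5, so the fall of Lama1 and the rises of Lama2 and Lama4 were each clear of the spread between libraries. Lama3, the alpha chain of the epidermal laminin, rose from a mean of 9.62 to 51.2 (2.35 ± 0.35), and Lama5 was not called (-0.58 ± 0.44, adjusted p = 0.280).

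The beta chain Lamb1 had 679.6, 715 and 947 normalized counts at E12.5 and 3471, 2815 and 3334 at E17.5 (change 2.05 ± 0.16, adjusted p = 9.4e-06). Lamc1 had 1765, 1907 and 2274 against 7763, 6472 and 7367 (1.86 ± 0.14, adjusted p = 7.4e-06). In the opposite direction, Lamc3 had 416, 404 and 364 at E12.5 and 76.9, 49.4 and 69.4 at E17.5 (-2.60 ± 0.20, adjusted p = 8.6e-06). For each of these 3 genes the groups did not overlap, and Lama1 and Lamc3 were the 2 laminin chains that fell. The count of falls was 5 in place of 8 without replicate 3 of E12.5. Lamb2, a beta chain known from synaptic and vessel basement membranes, was not called (0.63 ± 0.26, adjusted p = 0.0617). It was called with edgeR (0.71, adjusted p = 0.0330), with DESeq2 (0.74, adjusted p = 0.00913), in 1 fit over all libraries (adjusted p = 0.0278) and without replicate 2 of E17.5 (adjusted p = 0.00196).

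All 5 laminin-binding integrin chains rose between the embryonic ages. Itga7 had 57.1, 82.9 and 76.4 normalized counts at E12.5 and 546, 314 and 629 at E17.5 (2.72 ± 0.27, adjusted p = 4.3e-05). Itgb4, which pairs only with alpha6, had 10.4, 23.8 and 10.8 against 106, 77.6 and 111 (2.71 ± 0.36, adjusted p = 2.0e-04). Itga3 had 128, 182 and 133 against 782, 479.7 and 742 (2.15 ± 0.22, adjusted p = 5.4e-05). The E17.5 libraries were above the E12.5 libraries for all 3 of these chains. Itga6 rose from a mean of 772 to 2217 (1.53 ± 0.14), and Itgb1, from 3660.3 to 5929, had the smallest rise of the 5 (0.71 ± 0.16).

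Among the collagen receptors, Itga2 rose by 2.04 ± 0.30, Itga10 by 1.24 ± 0.26 and Itga1 by 0.62 ± 0.16, whereas Itga11 fell (-1.21 ± 0.46). The fall of Itga11 was called at an adjusted p of 0.0443, and the call was lost in 8 of 15 alternatives. Of the chains for fibronectin, vitronectin and other ligands with the RGD sequence, Itgav rose by 0.84 ± 0.20 and Itgb3, its partner in the vitronectin receptor, by 0.87 ± 0.16. Lower at E17.5 were Itga5, the fibronectin receptor (change -0.63 ± 0.22), Itga8, the nephronectin receptor (-0.69 ± 0.16), and Itgb5, another partner of alphav (-1.05 ± 0.21). Itga2b, the platelet fibrinogen receptor, had 18.7, 25.1 and 10.1 normalized counts at E12.5 and 3.06, 0 and 0 at E17.5. Of 7 platelet and blood cell markers 1 rose and 3 fell, with a summed level of 1622 to 2286 at E12.5 and 3609.6 to 7015 at E17.5. Itga9, a tenascin receptor, fell as well (-1.59 ± 0.30), from 434, 554 and 909 normalized counts to 230.4, 243 and 141. The Itga5 call was lost in 3 of 15 alternatives and the Itga8 call in 1 fit over all libraries. Itga4, which binds VCAM1 and fibronectin, was not called and its groups overlapped (-0.11 ± 0.26). Itgb8, Itgal, Itgam and Itgb2 were not called either.

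Cell type markers moved in the same comparison. Of 12 Schwann and satellite glia markers 8 rose and 1 fell, with a summed level of 5431 to 6285 normalized counts at E12.5 and 16988 to 19037 at E17.5. Of 10 fibroblast and perineurium markers 7 rose and 2 fell (9285 to 18514 against 32876 to 41409), and of 10 general neuron markers 9 rose and none fell (35712 to 55829 against 112920 to 132650). Of 5 tested muscle markers, looked at because Itga7 is a muscle integrin, 3 rose and none fell (164 to 946 against 742 to 2667). No marker on the lists named was at 0 in all libraries of either group, and their part in the changes of laminin and integrin chains was not tested.

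Partners of the 2 families were counted from lists, to be read beside the 31.1% of all genes tested that rose and the 31.9% that fell. In the integrin activators and adhesion complex 12 of 34 tested genes rose and 8 fell, among them Tln2, a talin that activates integrins (2.77 ± 0.17), and Bcar1, an adhesion scaffold (-1.23 ± 0.24). Of 16 other laminin receptors and basement membrane genes 10 rose and 5 fell, with Bcam, a receptor for the laminin alpha5 chain, at 2.80 ± 0.20 and Col4a6, a collagen IV chain, at -1.70 ± 0.31. Of 16 other integrin ligands 6 rose and 5 fell. Ibsp, which encodes the RGD protein bone sialoprotein, had a mean of 1.03 normalized counts at E12.5 and 1682 at E17.5, and Emilin1, a ligand of alpha4 and alpha9 integrins, fell by 1.88.

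The lesion comparison asks what changes in L4 and L5 ganglia after injury of the peripheral axon, which conditions sensory neurons for growth. Itga7 and Itga5 rose among the integrins, and Lama5 rose among the laminins, where Lamb3 also lay higher, while most alpha chains of both families were not called. Of 33 members tested 15 rose and 1 fell, where 20.9% of all 14556 genes tested rose and 20.2% fell (41.2% in either direction). The groups did not overlap for 16 members higher and 1 lower, as for 26.3% of all genes in each direction. The median change of the tested members was 0.33, against -0.01 over all genes. Not tested were Itga2b, Itgad, Itgae, Itgax and Itgb2l, and Lamb3 passed the filter only through the lesion libraries, so it had to differ. It is among the 15 rises, and its values are a description.

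The sequences before the start sites of 3 genes with large differences are shown to give their upstream context; Itga7 is named only. They are the 250 bases before the RefSeq transcript start (GRCm38.p6), read 5′ to 3′ on the gene's strand, and capitals mark GC boxes, GGGCGG or its reverse complement CCGCCC. They lie at chr2:180225860-180226109 (minus strand) for Lama5, chr15:103366792-103367041 (minus strand) for Itga5 and chr1:193301744-193301993 (plus strand) for Lamb3. The printed Lamb3 window lies inside a longer Lamb3 transcript of GENCODE M21 and shares 1 base with an exon. The window of another RefSeq start of Lamb3, chr1:193301993-193302242, shares 149 bases with an exon and is not printed.
Lama5: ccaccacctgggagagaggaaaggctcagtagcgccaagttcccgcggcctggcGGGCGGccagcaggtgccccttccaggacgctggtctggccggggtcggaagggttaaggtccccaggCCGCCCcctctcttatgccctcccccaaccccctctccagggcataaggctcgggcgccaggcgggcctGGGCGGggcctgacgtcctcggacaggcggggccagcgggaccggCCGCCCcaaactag
Itga5: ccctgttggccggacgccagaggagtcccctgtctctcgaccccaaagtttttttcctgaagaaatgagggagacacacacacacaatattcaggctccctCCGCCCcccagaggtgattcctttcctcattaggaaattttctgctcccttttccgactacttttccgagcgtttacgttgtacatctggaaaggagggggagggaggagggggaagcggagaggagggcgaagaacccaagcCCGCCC
Lamb3: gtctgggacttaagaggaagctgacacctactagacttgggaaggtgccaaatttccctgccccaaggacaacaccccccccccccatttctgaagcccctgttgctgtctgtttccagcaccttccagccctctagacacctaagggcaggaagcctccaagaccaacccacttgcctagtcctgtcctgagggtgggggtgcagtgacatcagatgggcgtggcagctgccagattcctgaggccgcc

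The Lama5 window held 4 GC boxes and 72.4% G or C, and the Itga5 window 2 GC boxes and 55.6%. The printed Lamb3 window held none of the searched motifs and 58.8% G or C, and the other Lamb3 window none and 61.2%. Over the 24 members with a RefSeq entry, 8 had a GC box in at least 1 window (9 of 27 windows), and 32.7% of all 32851 windows held one. The AP-1 site TGANTCA was found upstream of 1 member, Itgax, against 6.75% of all windows. Neither the CRE letters TGACGTCA (1.55% of all windows) nor the STAT letters TTCCNGGAA (0.913%) occurred in the members' windows. All motifs were searched on both strands, the motifs did not overlap each other in the printed windows, and no match says only that these letters are not in this window.

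Lamb3, a beta chain that joins the epidermal laminin, had 3.94, 3.66 and 3.44 normalized counts after sham surgery and 52.6, 38.4 and 45.7 after lesion, a difference of 3.31 ± 0.29. Lama5 had 27.6, 30.0 and 28.1 after sham surgery and 118, 90.2 and 132 after lesion, a change of 1.93 ± 0.18 (limma adjusted p = 3.9e-06). All lesion libraries lay above all sham libraries for both genes. Lama3, the alpha chain of the same laminin, was not called (means 28.6 and 24.6, change -0.22 ± 0.22, adjusted p = 0.464).

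Lamb2 rose from 230.3, 266 and 271 normalized counts to 378, 439 and 437 (0.71 ± 0.10, adjusted p = 1.3e-04) and Lamc3 from 91.5, 72.4 and 89.5 to 122, 129 and 114 (0.53 ± 0.14, adjusted p = 0.00930). The major chains Lamb1 (0.25 ± 0.07, adjusted p = 0.0159) and Lamc1 (0.25 ± 0.08, adjusted p = 0.0218) rose less, and both calls were lost in 1 fit over all libraries and without replicate 1 of sham. Lamb1 was also lost without replicate 1 of lesion, and Lamc1 without replicate 2 of lesion and in eBayes without trend. Lama2 (0.15 ± 0.12), Lama4 (0.23 ± 0.12) and Lama1 (0.33 ± 0.32) were not called and their groups overlapped. The laminin alpha chains at the highest level per kb, Lama4 and Lama2, were thus not among those called.

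Among laminin receptors, Itga7 had 1263, 1169.7 and 1373 normalized counts after sham surgery and 5711, 3829 and 5526 after lesion, a change of 1.96 ± 0.14 (adjusted p = 7.3e-06). Itga3 had 688, 661 and 723 against 654, 706 and 765, a change of 0.04 ± 0.08 (adjusted p = 0.758). Itga6 had 1083, 994 and 999.6 against 1156, 1234 and 993 (0.13 ± 0.09, adjusted p = 0.239). The lesion libraries were all above the sham libraries for Itga7, and they overlapped for Itga3 and Itga6, so of the 3 laminin-binding alpha chains Itga7 was the one called. Of their partners, Itgb1 rose from 4614, 4559 and 4528 to 6619, 5484 and 6180.2 (0.41 ± 0.07, adjusted p = 7.3e-04). Itgb4 rose from 158, 162 and 144 to 259, 336 and 235 (0.82 ± 0.13, adjusted p = 3.1e-04), with no call in 1 fit over all libraries (adjusted p = 0.159).

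Itga5 had 25.6, 27.0 and 33.3 normalized counts after sham surgery and 82.0, 93.5 and 70.5 after lesion, a change of 1.49 ± 0.19 (adjusted p = 4.9e-05). Its level after sham surgery was the lowest of the 8 groups. Smaller rises among RGD-binding chains were those of Itgb5 (0.42 ± 0.10, adjusted p = 0.00619) and Itgb8 (0.25 ± 0.09, adjusted p = 0.0439). Itgb6, a chain known for activating latent TGF-beta, was the only member called lower: it had 47.2, 54.8 and 45.9 against 42.6, 25.0 and 27.8 (-0.65 ± 0.23, adjusted p = 0.0337). The Itgb6 call was lost in 7 of 15 alternatives, the Itgb8 call in 10 of 16, and that of Itgb5 in 1 fit over all libraries. None of the 4 collagen-binding chains and none of the alpha4, alpha9 and beta7 chains was called, among 4 and 3 tested.

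Leukocyte chains rose too. Itgam, the alpha chain of the complement receptor on macrophages and neutrophils, had 54.1, 63.6 and 50.5 normalized counts after sham surgery and 159, 134 and 131 after lesion (1.32 ± 0.15, adjusted p = 2.0e-05). Its partner Itgb2 had 29.5, 35.1 and 46.5 against 75.1, 56.8 and 81.5 (0.93 ± 0.21, adjusted p = 0.00337), and Itgal, the lymphocyte chain, was not called (0.72 ± 0.30, adjusted p = 0.0677). The groups did not overlap for Itgam and Itgb2. Beside this, 9 of 12 tested markers of macrophages and other leukocytes rose and none fell, and the 13 markers summed to 1174 to 1189 normalized counts after sham surgery and 2456.5 to 3454 after lesion, none at 0. Of 10 fibroblast and perineurium markers 8 rose and none fell (9208 to 11532 against 12409 to 14584), and of 12 Schwann and satellite glia markers 4 rose and 2 fell (75248 to 100000 after lesion, 85630 to 105040 after sham surgery). None of 3 tested muscle markers was called (104 to 239 after sham surgery, 65.8 to 180.3 after lesion). The part of these cells in the changes was not tested.

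By their library numbers, the operated libraries were split here into 2 series, which the labels do not name. The earlier held 2 lesion and 2 sham libraries, numbered 69 to 75, and the later 1 of each, numbered 123 and 124. The lesion and sham libraries did not overlap for any of the 16 called members. Each of these therefore had to change in the same direction within both series, which is no separate support. Within the earlier and later series, respectively, Itga7 changed by 1.94 and 2.01, Itga5 by 1.70 and 1.06, and Itgam by 1.30 and 1.36. In 1 fit over all 24 libraries, which assumes 1 spread for all groups, 8 of the 15 rises were called. Those lost were Itgb4, Itgb5, Itgb8, Lamb1, Lamb2, Lamc1 and Lamc3.

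In the adhesion complex 18 of 35 tested genes rose after lesion and 4 fell, where 20.9% and 20.2% of all genes tested did. Zyx, which encodes the focal adhesion protein zyxin, changed by 0.86 ± 0.11 and Tln2 by -0.43 ± 0.09. Of 15 tested basement membrane and other laminin receptor genes 10 rose and 1 fell. Hspg2, the basement membrane proteoglycan perlecan, rose by 0.74 ± 0.09, and Cd151, a tetraspanin that binds laminin-binding integrins, fell by 0.40. Of 16 other integrin ligands 9 rose and none fell, led by Thbs1, the matrix protein thrombospondin-1 (1.36 ± 0.31, adjusted p = 0.0160).

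**Figure D3:**
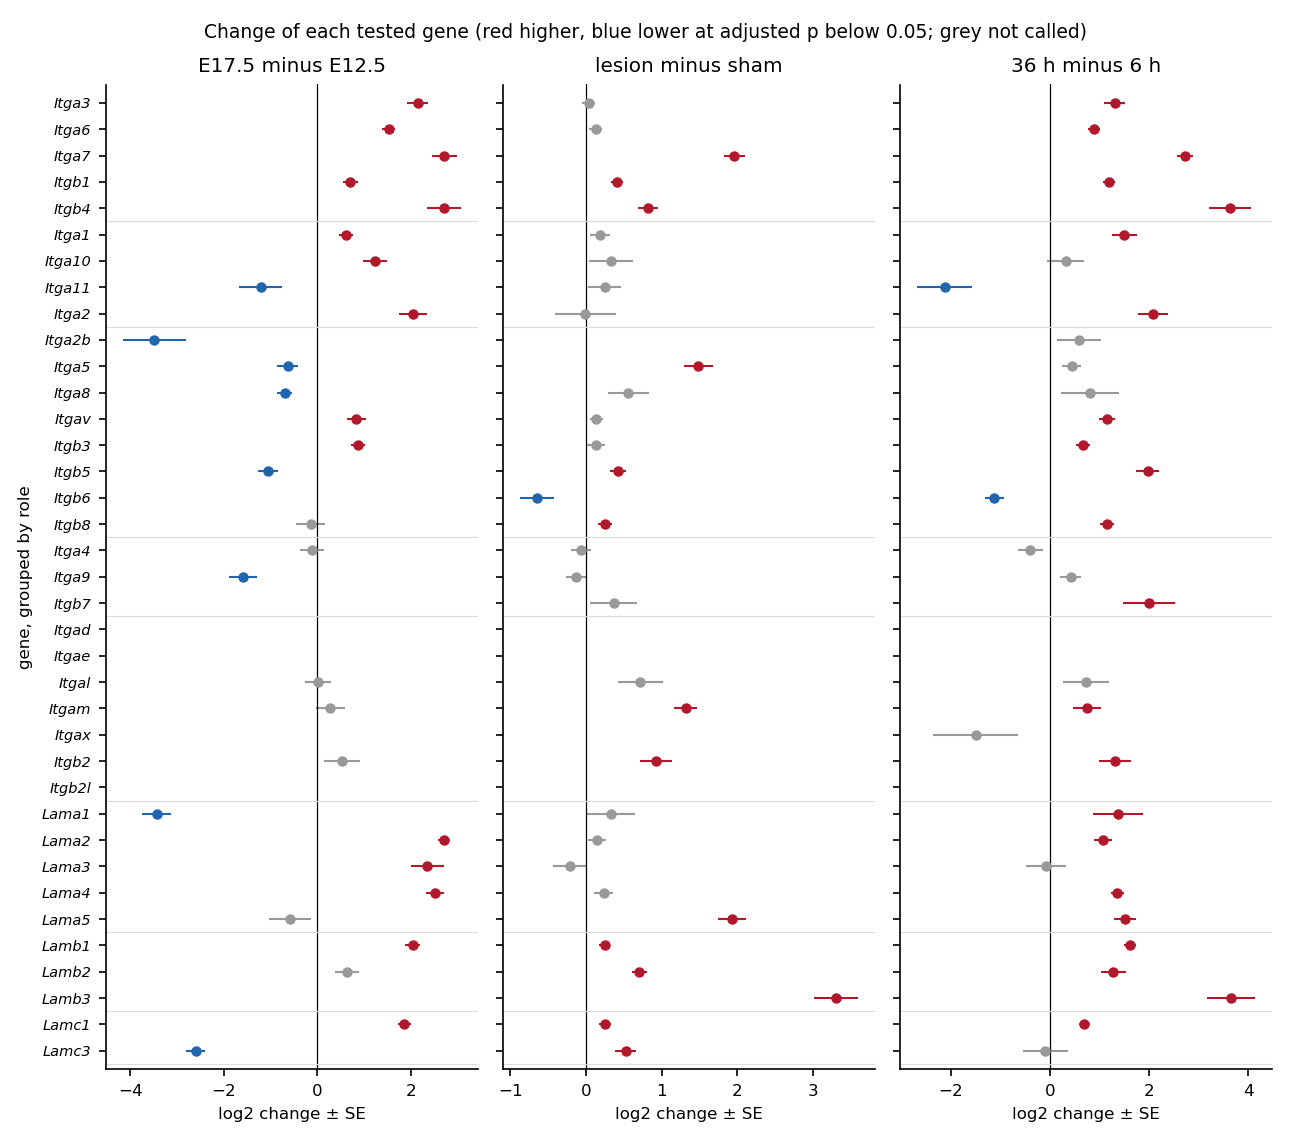
Points are log2 changes with SE of tested members for the embryonic, lesion and culture (36 h minus 6 h) comparisons, red where called higher, blue where called lower and grey where not called; horizontal scales differ. After lesion Itga7, Itga5, Lama5 and Lamb3 lie at 1.49 or more while Itga3 and Itga6 lie at 0.04 and 0.13.

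Before the course in culture is described, the 6 h cultures were set against sham-operated ganglia, the nearest uncultured adult tissue. This difference joins dissociation, plating, time, surgery, ganglion level (L4 and L5 against lumbar), library series and possibly sorting, which cannot be told apart. Of 36 members tested 12 were higher and 8 lower, where 23.3% and 24.5% of all 15935 genes tested were (47.8% in either direction). The groups did not overlap for 13 members higher and 8 lower, as for 29.1% and 33.6% of all genes. The medians were -0.02 for the members and -0.06 for all genes. Itga5 had 316, 372 and 282 normalized counts at 6 h, against 28.6 ± 4.08 after sham surgery (3.45 ± 0.20, adjusted p = 3.2e-12). Itgb6 had 169, 184 and 201, against 49.3 ± 4.82 (1.88 ± 0.48, adjusted p = 0.00251). Both genes had every 6 h library above every sham library.

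Also higher at 6 h were Lama5 (1.78 ± 0.31), Lama4 (1.47 ± 0.16), Lamc1 (1.37 ± 0.11), Itgav (1.46 ± 0.17), Itgb8 (1.12 ± 0.21), Itga2b (2.14 ± 0.57), Itga7 (0.62 ± 0.21), Itgb1 (0.48 ± 0.13) and Itga6 (0.37 ± 0.11). Itgb4 was at 36.3, 31.9 and 7.05 at 6 h, against 155 ± 9.67 after sham surgery (-2.86 ± 0.38, adjusted p = 1.9e-06). The value of 7.05 came from the shallowest 6 h library, where 1 read equals 3.53 normalized counts. Lamc3 was at 14.5, 14.3 and 21.2, against 84.5 ± 10.5 (-2.29 ± 0.32, adjusted p = 3.3e-06). Every 6 h library was below every sham library for both. Also lower were Itgb5, Lamb2, Itga1, Itgam, Itgb2 and Lama1, with changes of -0.75 to -1.12. The Lama1 call was lost in 8 of 14 alternatives, and those of Itga7 and Itgb2 in 2 of 14 each. Schwann and satellite glia markers were lower, 10 of 12, with 1 higher (33533 to 40584 at 6 h, against 85630 to 105040). Fibroblast and perineurium markers were lower as well, 8 of 10 with 1 higher (3738 to 4044 against 9208 to 11532), and so were leukocyte markers, 7 of 12 with 1 higher (282 to 328 against 1174 to 1189). Endothelial markers were higher, 4 of 10 with 1 lower (3050 to 3810.3 against 1628 to 1835), and neuron markers were lower, 6 of 10 with 1 higher (130860 to 149600 against 216200 to 236160). No marker on these 5 lists was at 0 throughout either group, and their part in the changes was not tested.

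Of the related lists, 11 of 35 adhesion complex genes were higher at 6 h and 4 lower, where 23.3% and 24.5% of all genes tested were. Rap1b, a small GTPase upstream of talin, differed by 1.30 ± 0.17 and Lims2, an adapter of integrin-linked kinase, by -0.96 ± 0.24. Of 16 basement membrane genes 4 were higher and 7 lower, with Col18a1, a basement membrane collagen, at 2.27 ± 0.17 and Nid2, the laminin-binding nidogen-2, at -1.23 ± 0.15. Of 16 ligands 7 were higher and 5 lower. Tnc, which encodes tenascin-C, had means of 44.2 and 1968 normalized counts after sham surgery and at 6 h (5.47 ± 0.48), and Vtn, which encodes vitronectin, had 142 and 14.8 (-3.19 ± 0.39).

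The culture course follows adult ganglion cells that extend processes on laminin over 6, 12, 24 and 36 h. From 6 to 36 h the laminin-binding integrin chains rose, 8 of the 11 laminin chains rose, and Itgb6 was among the members that fell. Of 35 members tested 24 changed in an F test over the 4 times, where 45.7% of all 15006 genes tested did. From 6 to 36 h 22 rose and 3 fell, where 25.3% of all genes tested rose and 25.3% fell (50.6% in either direction). The groups did not overlap for 23 members higher and 3 lower, as for 29.8% and 29.2% of all genes. The median change was 1.07 for the tested members and 0.02 for all genes. Itgad, Itgae and Itgb2l were not tested. Of the 2 end groups, Itga11 reached 10 only at 6 h and Lamb3 only at 36 h. Itga11 also passed the filter through its 12 h libraries and Lamb3 through its 24 h libraries, so passing did not by itself force a difference. They are among the 3 falls and the 22 rises, and their values from 6 to 36 h are a description.

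Itga7 had 1771, 2461 and 1682 normalized counts at 6 h and 11887, 13678 and 13035 at 36 h, a change of 2.72 ± 0.17 (adjusted p = 6.4e-09). At 12 h it had 2256, 3317 and 3335, and at 24 h 8375, 8409 and 7062. The step from 12 to 24 h was the largest of the 3 (1.44 ± 0.17, adjusted p = 7.0e-05), beside 0.59 ± 0.17 in the first (adjusted p = 0.0334) and 0.70 ± 0.17 in the last (adjusted p = 0.0371). Libraries at 6 and 12 h overlapped, those at 12, 24 and 36 h did not, and the calls of the first and last step were lost in 7 and 9 of 15 alternatives. Differences between the steps were not tested. Of 3 tested muscle markers 1 rose and none fell from 6 to 36 h (59.5 to 95.2 against 175 to 299). The marker that rose was Ttn, with means of 59.2 at 6 h, 448 at 12 h and 216 at 36 h. Acta1 and Myh3 were not called, with means of 11.0 and 8.42 at 6 h and 6.38 and 2.51 at 36 h. Tnnt3, a troponin of fast muscle, was at 0 in all cultures, and Myog was at 0 at 12 and 36 h. The part of muscle cells was not tested.

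Itgb4 had 36.3, 31.9 and 7.05 normalized counts at 6 h and 257, 301 and 241 at 36 h, a change of 3.63 ± 0.42 (adjusted p = 4.3e-06). The lowest of these, 7.05, is a value of few reads, since 1 read equals 3.53 normalized counts in that library. The Itgb4 level at 36 h, 266 ± 31.1, was near that after lesion, 276 ± 52.8, and above that after sham surgery, 155 ± 9.67. These groups were not compared by a test. Itgb1 went from 6353, 6124 and 6587 to 15561, 13683 and 14193 (1.19 ± 0.12, adjusted p = 1.6e-06), Itga3 from 699.9, 787 and 455 to 1408, 1619 and 1683 (1.31 ± 0.21, adjusted p = 1.1e-04). Itga6 rose from 1342, 1269 and 1354 to 2808, 2357 and 2198 (0.89 ± 0.12, adjusted p = 1.5e-05). All 5 laminin-binding chains had their 36 h libraries above their 6 h libraries. Of the steps, Itgb1 was called from 12 to 24 h (0.63 ± 0.12), Itgb4 from 6 to 12 h (1.69 ± 0.42) and Itga6 from 24 to 36 h (0.57 ± 0.12), while no single step of Itga3 was called.

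**Figure D4:**
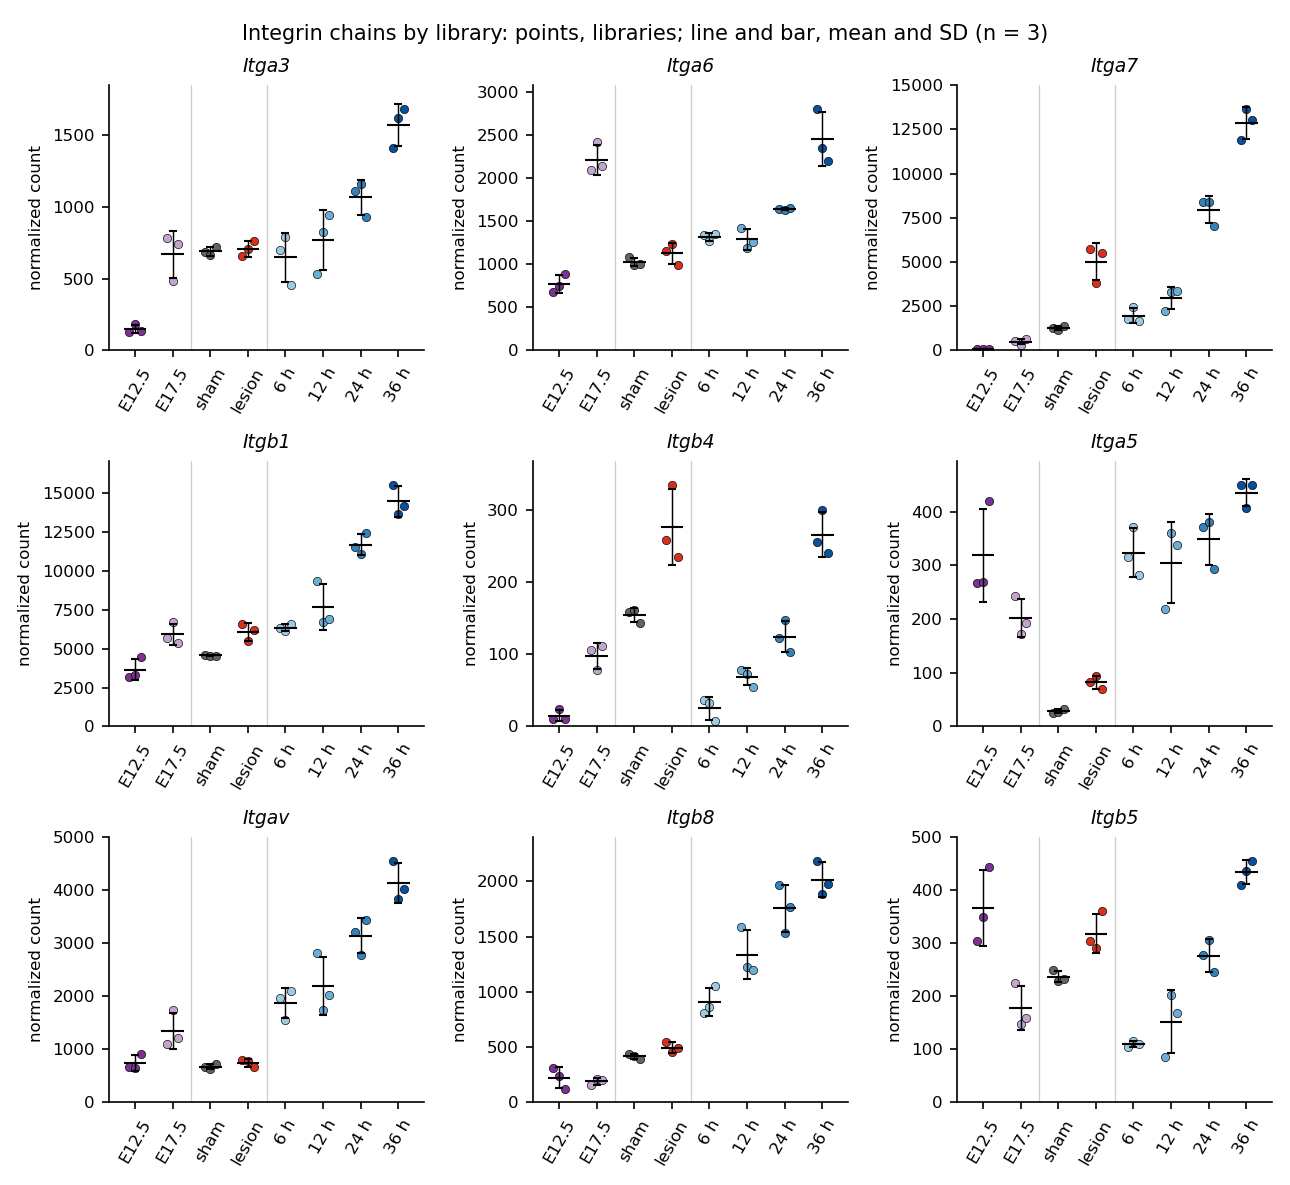
Normalized counts of 9 integrin chains in each library (points) with mean and SD (line and bar, n = 3), by group; vertical scales start at 0 and differ between panels. Itga7 and Itgb1 climb to 12867 and 14479 at 36 h, Itgb4 is low at 6 h (25.1) and similar after lesion and at 36 h, and Itga5 is lowest after sham surgery (28.6).

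Of the collagen receptors in culture, Itga1 rose by 1.50 ± 0.25 and Itga2, whose gene lies 21.0 kb from Itga1 on chromosome 13, by 2.08 ± 0.30. Itga11 had 29.0, 23.6 and 17.6 normalized counts at 6 h and 9.70, 3.10 and 2.77 at 36 h (a difference of -2.13 ± 0.56). Itga10 was not called. Among the RGD-binding chains Itgav had 1965, 1549 and 2094 against 4561, 3841 and 4028 (1.16 ± 0.16, adjusted p = 3.4e-05). Its beta partners differed. Itgb5 rose from 105, 115 and 109 to 411, 437 and 456 (1.97 ± 0.24), Itgb8 from 804, 867 and 1051 to 2187, 1884 and 1974 (1.16 ± 0.14) and Itgb3 by 0.66 ± 0.14, whereas Itgb6 went from 169, 184 and 201 to 77.6, 88.4 and 86.8 (-1.12 ± 0.19, adjusted p = 2.1e-04). The groups at 6 and 36 h did not overlap for these 5 genes. Itga5 was not called (0.44 ± 0.19, adjusted p = 0.0618), and neither were Itga8, Itga2b, Itga4 and Itga9. Itga5 was called with edgeR (0.44, adjusted p = 0.0401) and in limma without replicate 2 of 6 h (0.54, adjusted p = 0.0429). Itga4 was called lower in limma without replicate 1 of 36 h (-0.65, adjusted p = 0.0426).

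Chains of leukocytes were low in culture, and some rose. Itgb2 had 15.2, 20.3 and 21.2 normalized counts at 6 h and 73.3, 41.9 and 36.0 at 36 h (1.31 ± 0.32, adjusted p = 0.00334), and Itgb7, a chain of gut-homing lymphocytes, had 7.26, 7.15 and 10.6 against 31.3, 68.2 and 21.2 (2.00 ± 0.53, adjusted p = 0.00536). Itgam was called at 0.75 ± 0.29 (adjusted p = 0.0432), a call that was lost when any of the 6 h libraries, or replicate 1 or 3 of 36 h, was left out. Of the leukocyte markers 5 of 9 tested rose and 1 fell, with a summed level of 282 to 328 at 6 h and 496 to 599 at 36 h, and Cd3e, a T cell marker, was at 0 in the 36 h libraries. The part of leukocytes in these rises was not tested.

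Alpha, beta and gamma chains of laminin were among the genes that rose in culture. Lamb3 had 2.90, 3.85 and 7.05 normalized counts at 6 h and 49.6, 72.9 and 81.2 at 36 h (a difference of 3.66 ± 0.48), with 3.90, 15.6 and 13.0 at 12 h and 19.7, 26.4 and 29.2 at 24 h. Lamb1 had 712, 893 and 726 at 6 h and 2276, 2405 and 2409 at 36 h (1.61 ± 0.12, adjusted p = 4.5e-08), and Lama4 had 543, 685 and 698 against 1581, 1726 and 1609.9 (1.36 ± 0.13, adjusted p = 6.1e-07). Lama5 had 89.3, 128 and 88.2 against 288, 336 and 247 (1.52 ± 0.21, adjusted p = 3.2e-05). In these 4 chains the 36 h libraries lay above the 6 h libraries. Rises were also called for Lamb2 (1.28 ± 0.25), Lama2 (1.07 ± 0.19), Lamc1 (0.69 ± 0.11) and Lama1 (1.37 ± 0.50), the last at 8.78 ± 4.71 and 22.4 ± 6.01 normalized counts, with the call lost with DESeq2 and without replicate 3 of 6 h or replicate 1 or 3 of 36 h, and no call in the F test (adjusted p = 0.142).

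Lama3, the alpha chain of the epidermal laminin that Lamb3 joins, was not called in culture (33.7 ± 14.7 normalized counts at 6 h and 31.3 ± 13.6 at 36 h, change -0.08 ± 0.40), and the groups overlapped. Lamc3 was not called either (-0.09 ± 0.46).

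Single steps held few calls. From 6 to 12 h 5 members rose and none fell, where 5.86% of all genes tested rose and 4.72% fell; these were Itga7, Itgb3, Itgb4, Itgb8 and Lamb1. From 12 to 24 h 4 rose (Itga7, Itgav, Itgb1 and Itgb5) and 1 fell, where 4.82% and 6.74% of all genes did. From 24 to 36 h 6 rose and none fell, where 1.11% and 1.55% of all genes did (2.65% in either direction). The libraries at 36 h lay above those at 24 h for 20 members, as for 14.0% of all genes. The rises in the last step were those of Lama2 (0.83 ± 0.19), Lamb1 (0.76 ± 0.12), Lamc1 (0.74 ± 0.11), Lama4 (0.71 ± 0.13), Itga7 and Itga6, so 4 of the 6 were laminin chains. These counts moved with single libraries. From 6 to 12 h there were 8 rises without replicate 1 at 12 h, the shallowest library of that time, 3 without replicate 3 at 12 h, and 2 without replicate 1 at 6 h or replicate 2 at 12 h. From 12 to 24 h there were 7 without replicate 1 at 12 h and 2 without replicate 1 or 2 at 24 h, and from 24 to 36 h there were 2 without replicate 3 at 24 h and 3 without replicate 1 or 2 at 24 h or replicate 1 at 36 h.

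**Figure D5:**
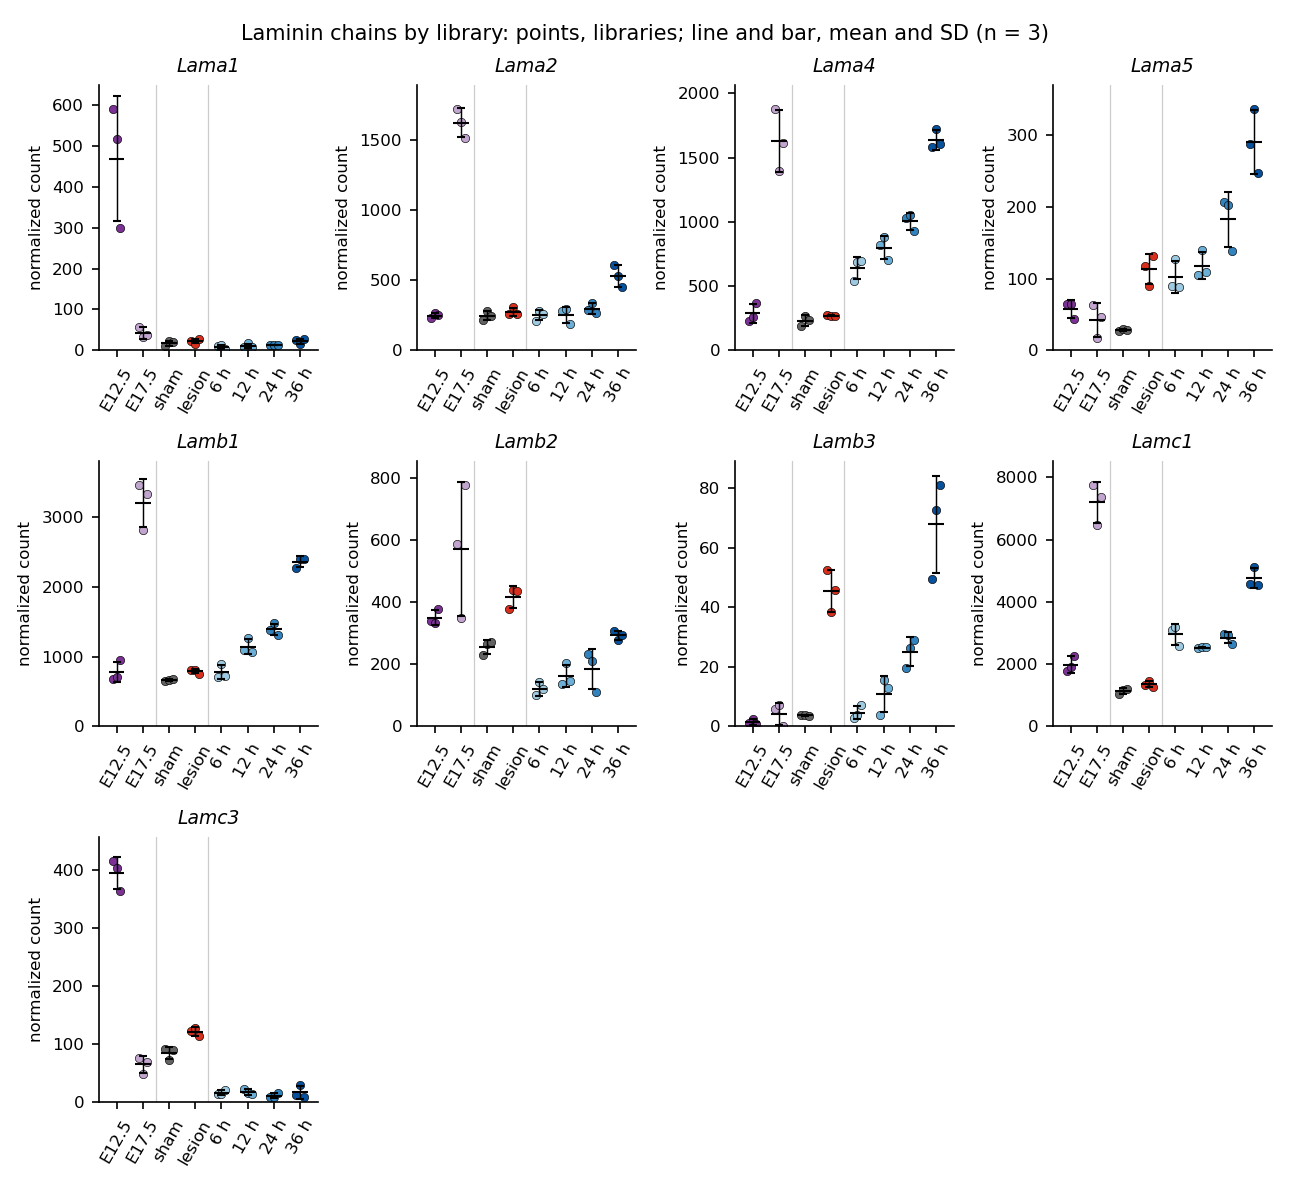
Normalized counts of 9 laminin chains in each library (points) with mean and SD (line and bar, n = 3), by group; vertical scales start at 0 and differ between panels. Lama2, Lamb1 and Lamc1 are highest at E17.5 and rise late in culture, and Lamb3 is at 45.6 after lesion and 67.9 at 36 h.

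Endothelial markers rose in culture, 9 of 10 with none lower (summed level 3050 to 3810.3 at 6 h and 5239.5 to 6968 at 36 h), and so did 4 of 8 mural cell markers with none lower (1953 to 2320.5 against 3024 to 3409). Of 10 general neuron markers 6 fell and none rose (130860 to 149600 against 77927 to 101070). Of 12 Schwann and satellite glia markers 6 rose and 3 fell (33533 to 40584 against 34568 to 39797). Of 10 fibroblast and perineurium markers 4 rose and none fell (3738 to 4044 against 6445 to 7236). None of these markers was at 0 at 6 or 36 h, and their part in the rises of integrin and laminin chains was not tested. In the adhesion complex 14 of 35 genes rose and 7 fell, where 25.3% of all genes tested rose and 25.3% fell. The talins parted: Tln1 rose by 2.04 ± 0.19 while Tln2 fell by 0.94. Of 15 basement membrane and other laminin receptor genes 12 rose, with Hspg2 at 2.53 ± 0.23, and 1 fell, Utrn, which links dystroglycan to actin (-0.41 ± 0.12). Of 16 ligands 8 rose and 3 fell, with Emilin1 at 3.58 ± 0.48.

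The lists of members called in comparisons that share no library were laid side by side. Of the 15 members that rose after lesion and the 22 that rose from 6 to 36 h, 12 were in both, 80.0% of the first and 54.5% of the second. Lamb3, which had to differ after lesion, is 1 of the 12. Among all genes, 1490 were in both, 49.0% of the 3043 higher after lesion and 39.3% of the 3794 higher at 36 h. Itga5 and Lamc3 rose after lesion and were not called from 6 to 36 h. At 6 h Itga5 was already higher, and Lamc3 lower, than after sham surgery. Of the 16 members that rose from E12.5 to E17.5, 13 also rose in culture (81.2% and 59.1% of the lists, against 16.7% and 19.9% among all genes). These 13 include the 5 laminin-binding integrin chains and Lama2, Lama4, Lamb1 and Lamc1. The lists of E17.5 and lesion shared 6 members, among them Itga7, Itgb1, Itgb4, Lamb1 and Lamc1, 37.5% of the first and 40.0% of the second (17.2% and 25.6% among all genes). The shares among all genes do not allow for how often members rose in each comparison. Of the members tested, 22 of 35 rose from 6 to 36 h, 16 of 31 between embryonic ages and 15 of 33 after lesion. Larger overlaps of members than of all genes therefore do not measure a link between comparisons, and the overlaps were not tested.

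E17.5 and sham-operated adults differ in age, surgery and library series, and may differ in ganglion level. Between them 7 of the 11 laminin chains were lower in the adult and none was called higher. Of 36 members tested 7 were higher and 18 lower, where 28.1% and 28.5% of all 15935 genes tested were (56.6% in either direction). The groups did not overlap for 9 members higher and 19 lower, as for 31.3% and 33.4% of all genes, and the medians were -0.66 and -0.01. Lama4 had 1881, 1393 and 1616 normalized counts at E17.5 and 189, 270.5 and 235 after sham surgery (-2.82 ± 0.16, adjusted p = 8.2e-13). Lamc1 had 7763, 6472 and 7367 against 1040.1, 1171 and 1208 (-2.66 ± 0.11, adjusted p = 3.7e-15). Lama2 (-2.71 ± 0.16) and Lamb1 (-2.25 ± 0.12) were lower to a similar extent, and groups did not overlap for these 4 chains. Lama3, Lama5 and Lamc3 were not called. Itga7 went the other way, with 546, 314 and 629 at E17.5 and 1263, 1169.7 and 1373 after sham surgery (1.41 ± 0.21, adjusted p = 5.6e-06), and so did Itgb8 (1.13 ± 0.21), Itgb6 (2.57 ± 0.48) and the leukocyte chains Itgam (1.13 ± 0.24) and Itgb2 (1.27 ± 0.31). Itga5 was lower in the adult (-2.77 ± 0.20), as were Itga2, Itga8 and Itga10, with changes of -2.21 to -2.73. Fibroblast and perineurium markers were lower in the adult, 6 of 10 with 2 higher (32876 to 41409 against 9208 to 11532), and Schwann and satellite glia markers were higher, 7 of 12 with 1 lower (16988 to 19037 against 85630 to 105040). Endothelial markers were lower, 6 of 10 with none higher (3859 to 4396 against 1628 to 1835), and so were mural cell markers, 5 of 8 with 2 higher (3043 to 3269.6 against 2082 to 2475). Platelet and blood cell markers were lower for 3 of 7 with 1 higher (3609.6 to 7015 against 755 to 927), and muscle markers for 4 of 5 tested with none higher (742 to 2667 against 104 to 239). Neuron markers were higher for 4 of 10 with 2 lower (112920 to 132650 against 216200 to 236160), and leukocyte markers for 2 of 12 tested with 1 lower (1179 to 1385 against 1174 to 1189). No marker was at 0 throughout either group, and the part of these cells in the differences was not tested.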

How the data were processed

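RNA of mouse dorsal root ganglia was analysed in 24 libraries from 8 groups of 3, grouped by their titles. The authors deposited 1 table of signal values, read counts divided by 1 factor per library. The division was read from the values: 339603 values of up to 1000 reads were checked and 100.0% were whole reads within 0.1. Per the submitters' processing notes, TopHat and the build mm10 were used. For the counting tool, annotation, strand setting and factors, the answer is not given in the sources used here, so reads shared by overlapping genes may sit with either gene.

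The test was that of limma (3.58.1, R 4.3.3) with trend and robust eBayes, run on values as log2(value + 1), with Benjamini-Hochberg adjustment over all genes of a fit at 0.05. The embryonic, operated and cultured libraries were each fitted alone. The differences 6 h minus sham and sham minus E17.5 used all 24 libraries. Genes needed a value of at least 10 in 3 libraries. Because the unit is normalized, edgeR 4.0.16 and DESeq2 1.42.0 on recovered reads were alternatives, with other pseudocounts and filters, TMM scaling, eBayes without trend, 1 fit over all libraries, library series as a term and each library left out. The tests were checked on simulated counts.

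Counts are over all members, and 1 gene is not reported here by itself. From each partner list, the called genes with the largest rise and fall in 4 comparisons are named where groups do not overlap and the higher mean is at least 100. Members and lists were chosen with earlier results of these data known. Positions and exon lengths are from GENCODE M21, and upstream sequences from RefSeq. Figures used matplotlib 3.10.9.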

Additional observations from a re-analysis of the deposited data

How the results depend on the processing

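No called member changed direction under any alternative that tested it. Alternatives whose filter left a member out were not counted for it, among them the stricter filter for Lamb3 after lesion. Of the 24 members called between embryonic ages, 21 stayed called under every alternative that tested them. So did 7 of 16 after lesion, 22 of 25 from 6 to 36 h and 20 of 24 in the F test. At 6 h against sham 17 of 20 did, and in sham against E17.5 21 of 25. In single culture steps 1 of 5, 2 of 5 and 2 of 6 did. After lesion, 1 fit over all 24 libraries gave 8 rises and 0 falls, and the stricter filter and DESeq2 each gave 0 falls, where 15 and 1 are reported. From 6 to 12 h, eBayes without trend and 1 fit over all libraries each gave 3 rises in place of 5. From 12 to 24 h edgeR and DESeq2 each gave 7 in place of 4. From 24 to 36 h DESeq2 gave 11 and eBayes without trend 3 in place of 6. The cause was not tested.

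Leaving out single libraries gave 16 to 17 rises and 5 to 8 falls between embryonic ages, with 5 without replicate 3 of E12.5, and 11 to 16 rises and 0 to 1 falls after lesion. It gave 2 to 8 rises and no falls from 6 to 12 h, 2 to 7 rises and 0 to 1 falls from 12 to 24 h, 2 to 5 rises from 24 to 36 h, and 22 to 24 calls in the F test. From 6 to 36 h it gave 20 to 22 rises and 3 to 4 falls, at 6 h against sham 11 to 12 and 6 to 8, and for sham against E17.5 5 to 9 and 17 to 19. No paired analysis was possible because the labels give the groups no shared replicate numbers. Itgad and Itgb2l passed the filter in none of the reported fits, so no change is given for them. Without a filter on low values, Itga2b between embryonic ages and Lamb3 after lesion were also called, and so were Itga11 and Lamb3 from 6 to 36 h. The same libraries gave these calls, so they are no separate support, and the values remain a description.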
